A study of Mus musculus with 5 samples.

Results

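The vomeronasal receptor genes of the mouse were examined in whole-genome bisulfite sequencing (WGBS) of leukemic blasts. The members were the protein-coding genes of the GENCODE annotation whose symbol begins with *Vmn1r* or *Vmn2r*, which gave 333 of 21831 genes, 210 of type 1 (V1R) and 123 of type 2 (V2R). The methylation level of a gene was measured over a window of the gene body plus 5 kb on each side, as methylated calls over all calls of both strands in percent, and at least 20 calls were required in every library. This left 295 receptor windows (179 V1R and 116 V2R) of 21484 windows. The blasts, labelled C57BL/6, came from the bone marrow of mice with acute myeloid leukemia (AML) and were sorted as DAPI-CD45.2+CD3-B220-Ter119- cells. All libraries carried Cebpa-/p30, that is, a deleted *Cebpa* allele beside an allele that encodes only the short isoform p30 of this myeloid transcription factor. They were Tet2+/+ (2 libraries, numbered 23 and 24) or Tet2-/- (3 libraries, numbered 5, 7 and 8). According to the methods of the study, floxed alleles were recombined in blood cells with Mx1-Cre after injection of poly(I:C), and the leukemias grew in transplanted C57BL/6 J.SJL congenic recipients. *Tet2* encodes a dioxygenase that oxidises methylated cytosine. Bone marrow of several recipients can come from 1 donor mouse, and the labels do not tie libraries to donors, so p-values measure the spread between these libraries. Ages are not given in the labels.

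Vomeronasal receptors are G protein-coupled receptors of sensory neurons in the vomeronasal organ, where they detect pheromones and other social cues, and each neuron uses few of them. V1R genes have a short coding sequence, usually in a single exon, and pair with the G protein subunit encoded by *Gnai2*. V2R genes have several coding exons, a large extracellular domain that binds peptides and proteins, and pair with the subunit encoded by *Gnao1*. Both families lie in arrays of recently duplicated genes, and blood cells are not known to use them. In the annotation, 159 of 210 V1R genes had 1 coding piece, whereas V2R genes had a median of 7.

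Most receptors without enough calls were nearly identical to another receptor. A receptor without any call and its nearest relative are shown as an example. The first 120 coding bases are shown for *Vmn1r135* (chr7:21832351-21832470, plus strand) and its nearest relative *Vmn1r163* (chr7:23055540-23055659, plus strand), both in GRCm38. Bases that differ within the pair would be in capitals, and there are none.
Vmn1r135: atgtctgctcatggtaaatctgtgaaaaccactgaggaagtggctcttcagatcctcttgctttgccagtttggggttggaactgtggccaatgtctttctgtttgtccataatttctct
Vmn1r163: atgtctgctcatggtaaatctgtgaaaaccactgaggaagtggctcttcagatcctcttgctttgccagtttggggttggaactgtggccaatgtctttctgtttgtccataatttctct
*Vmn1r135* and *Vmn1r163* had 0 differences over 921 coding bases, and the window of *Vmn1r135* held 0 calls in all 5 libraries, while that of *Vmn1r163* held 5 calls in libraries 23 and 8 each and 0 in the others. The 38 receptors without enough calls were 31 V1R and 7 V2R, and 36 of them lay on chromosome 7. Where it could be computed, their median coding identity to the nearest other receptor was 99.9% and the lowest 97.3%. The median was 93.2% for the receptors with enough calls. The lowest calls in a library were 19 for *Vmn1r114*, just outside the minimum, and 21 for *Vmn1r151*, just inside.

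Depth fell in steps with this identity. The 108 receptors with an identity from 90% to 95% had a median of 3.16 calls per CpG dyad (a CpG on both strands), and all 108 had enough calls. The 64 receptors from 95% to 98% had 2.74, the 28 from 98% to 99% had 2.14, and the 60 from 99% upwards had 0.351, of which 29 had enough calls. Levels did not follow in steps, with medians of 62.4% at 80% to 90%, 65.3% at 90% to 95%, 65.2% at 95% to 98%, 60.9% at 98% to 99% and 59.7% from 99% upwards. An identity could be computed for 325 of 333 receptors. Whether reads that match several copies are responsible for the lower depth was not tested.

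**Figure D1:**
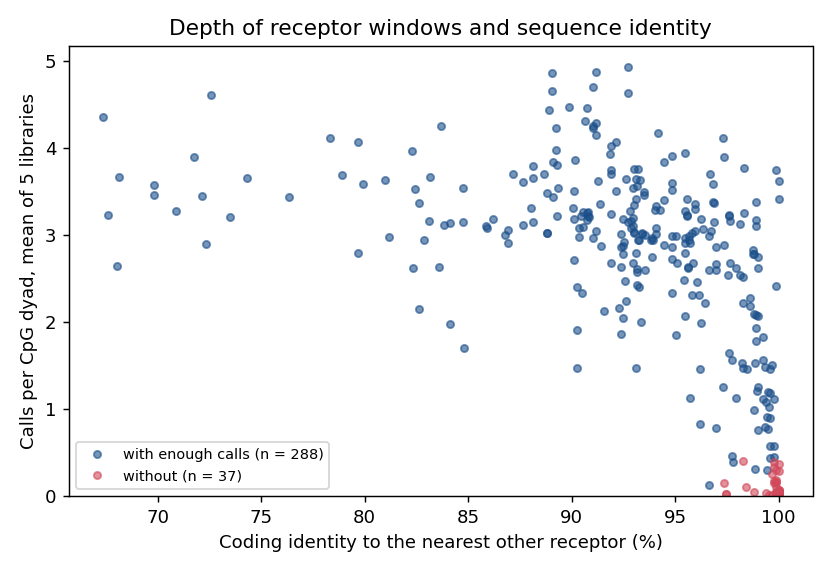
Each point is 1 receptor, with the coding identity to its nearest other receptor on the x axis (%) and the calls per CpG dyad in the mean of 5 libraries on the y axis. Receptors without enough calls (red) sit at the right edge, from 97.3% identity upwards.

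Against other genes, the receptor windows were poor in CpG and seldom under 50% methylated. Their median CpG density was 4.46 dyads per kb, against 11.8 for other genes, and their median GC content 38.2% against 44.9%. The ratio of observed to expected CpG was 0.122 against 0.23. This was not particular to them. Olfactory receptor windows had 4.32 dyads per kb, 37.6% GC and a ratio of 0.124. Bitter taste receptor windows had 4.45, 37.1% and 0.128. The mean level over the 5 libraries lay between 50% and 80% in 276 of 295 receptor windows. It was under 50% in 7 of them (2.37%), whereas 15.9% of other genes were under 50%. The quartiles of this mean level were 59.6% and 69.7% in receptors, and 56.0% and 72.2% in other genes. They were 61.6% and 73.2% in olfactory receptors, which shared the narrower range.

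The receptor windows were lowest in library 24 and highest in library 7, as was the genome, but libraries 8 and 23 changed places. They did so too in olfactory receptors (means of 66.9% in library 23 and 65.1% in library 8) and in other genes of like CpG density (65.9% and 64.4%). In other genes of like CpG number they did not, at 64.6% and 64.7%. The mean level of the 295 windows was 64.3% in Tet2+/+ library 23 and 58.8% in library 24, and 66.9%, 71.7% and 62% in Tet2-/- libraries 5, 7 and 8. Library 7 was the highest in 229 of 295 windows (77.6%, against 70.3% of all windows). Library 24 was the lowest in 191 (64.7%, against 76.9%), and library 8 in 70 (23.7%, against 10.37%). Library 8 lay below library 23, and the genotypes overlapped in these means. Genome-wide levels were 62.3% to 67.3% in Tet2+/+ and 68.4% to 74.8% in Tet2-/-, at 2.96 (library 8) to 5.19 calls per dyad, and did not overlap.

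Set beside other genes of like CpG number, the receptors lay slightly lower, and more so in Tet2-/-. Other genes, olfactory receptors among them, were averaged in classes of the number of CpG dyads, each 0.25 wide on the log2 scale. The receptors minus these genes gave -0.28 and -0.42 points in Tet2+/+ libraries 23 and 24, and -1.13, -0.77 and -2.67 points in Tet2-/- libraries 5, 7 and 8. The mean over libraries was -1.05 points. The gain of the receptors over Tet2+/+ was thus 1.17 points smaller than that of other genes (5.36 against 6.53 points). Without library 8 the difference in gain was -0.61 points. This difference was not tested. The offset in level itself turned positive when gene bodies were measured alone (1.92 points) or with 2 kb on each side (0.044 points).

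The offset was not alike in V1R and V2R genes, a contrast that was not tested. V1R windows lay below other genes of like CpG number in all 5 libraries, by -1.91 and -2.16 points in Tet2+/+ and -2.48, -2.17 and -3.38 points in Tet2-/-. V2R windows lay above them by 2.22 and 2.27 points in Tet2+/+ and by 0.963 and 1.4 points in Tet2-/- libraries 5 and 7, but by -1.56 points in library 8. When classes were set by CpG dyads per kb, the V2R offset was -0.891 and 0.914 points in Tet2+/+ and -1.53, -1.85 and -1.82 points in Tet2-/-, while that of V1R stayed between -2.73 and -1.51. The sign of the V2R offset therefore changed with the way like genes were chosen.

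**Figure D2:**
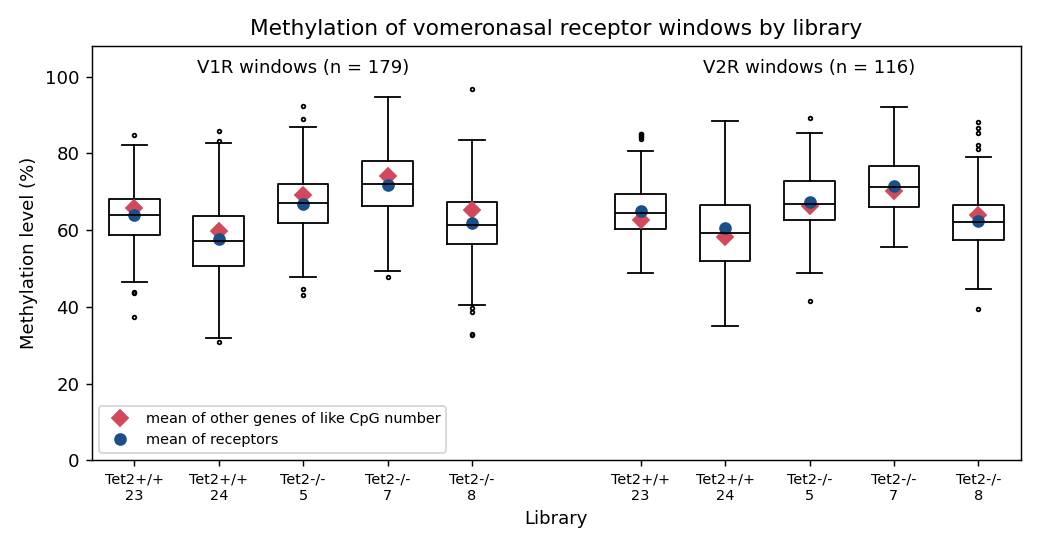
Boxes show the methylation level (%) of 179 V1R and 116 V2R windows in each of 5 libraries (median, quartiles, whiskers to 1.5 interquartile ranges, points beyond). Blue circles are receptor means and red diamonds means of other genes of like CpG number, which lie above the V1R means in all 5 libraries.

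To ask how loss of *Tet2* moved the receptors, methylated and unmethylated counts were tested over all 21484 windows with edgeR's quasi-likelihood test, with Benjamini-Hochberg adjustment over all windows at 0.05. The median difference of the 295 receptor windows (mean of Tet2-/- minus mean of Tet2+/+) was 5.61 points, against 5.17 points over all windows, and 261 differences were positive (88.5%, against 91.6%). The difference was 5.80 points in V1R and 5.40 points in V2R windows. In Tet2+/+ the libraries' medians of receptor windows averaged 60.8% ± 4.55 (SD, n = 2). For Tet2-/- this was 66.9% ± 4.82 (SD, n = 3), a difference close to the spread between libraries. With 5 libraries in 2 genotypes there are 10 splits, so an exact permutation p is never under 0.1, and none is given for the group of receptors.

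Single receptors rarely passed the test. Of 295 windows 1 was higher in Tet2-/- (*Vmn1r1*) and 1 lower (*Vmn2r96*). Over all windows 19.3% were higher and 0.00931% (2 windows) lower. At an unadjusted p under 0.05 there were 23 receptors higher (7.80%) and 3 lower (1.02%), against 32.1% and 0.0605% of all windows. Of V2R windows 0 were called higher in edgeR's quasi-likelihood test, with 8 higher at an unadjusted p under 0.05. By contrast, limma on log2 odds called 17 receptors higher (5.76%), against 10% of all windows. The V2R genes *Vmn2r39* and *Vmn2r75* were among those 17. All 3 Tet2-/- libraries lay above both Tet2+/+ libraries in 76 of 295 receptor windows (25.8%), against 49.6% of all windows. They lay below both in 6 (2.03%), against 0.745%. Of these 6, 3 lay in the stretch of chromosome 17 from *Vmn2r95* to *Vmn2r102* described below. Of the 3 receptors lower at an unadjusted p under 0.05 in edgeR's test, 2 were on chromosome 17.

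The shares called in other genes with like numbers are given beside these, and their differences from the receptors were not tested. Other genes of like CpG number were called higher in 11.2%, and had all Tet2-/- libraries above in 40.5%. They had 3.86 calls per dyad against 2.88 in receptors. In classes of the mean number of calls per library, a comparison chosen after seeing the data, other genes were called higher in 7.0% and had all Tet2-/- libraries above in 35.9%. In classes of CpG dyads per kb these shares were 5.27% and 30.1%, the latter close to the 25.8% of receptors. The mean SD within genotypes was 5.17 points in Tet2+/+ and 5.75 points in Tet2-/- in receptors, against 4.73 and 5.15 points in other genes by CpG number, 5.21 and 5.58 points by CpG density, and 5.03 and 5.54 points by number of calls. With 1 library left out, all Tet2-/- libraries lay above in 68.8% of receptor and 82.9% of all windows without library 23, in 30% and 51.9% without library 24, in 29.8% and 54.9% without library 5, and in 26.1% and 51.4% without library 7. Without library 8 these shares were closest, at 65.8% and 69.8%, and 10 receptors were called higher (3.36%), against 19.2% of all windows. Leaving out library 23 or 24 leaves 1 Tet2+/+ library, so counts called are not given for these fits. Without library 24 the median difference was 2.85 points in receptor windows and 3.12 points in all windows.

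**Figure D3:**
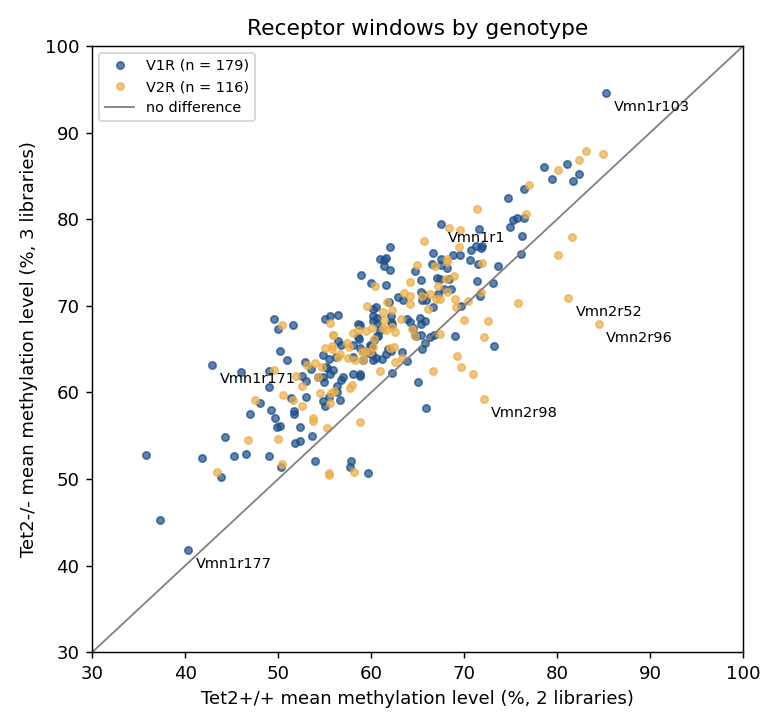
Each point is 1 receptor window, with the mean methylation level of 2 Tet2+/+ libraries on the x axis and of 3 Tet2-/- libraries on the y axis (%). Most of the 295 points lie above the line of no difference, 34 lie below it, and *Vmn2r96* and *Vmn2r98* lie farthest below.

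Among the gains, *Vmn1r1*, a lone V1R gene on chromosome 1 (gene body chr1:182154704-182164486, minus strand, ENSMUSG00000091013.3, 145 dyads in the window), passed the test. Its levels were 71.7% and 63.3% in Tet2+/+ and 76.4%, 84.0% and 78.0% in Tet2-/-, from 460 to 830 calls. The groups did not overlap, and the difference was 11.95 points (adjusted p = 0.0398, edgeR's quasi-likelihood test). It was 7.72 points without library 24 and 16.2 points without library 23, and each of these leaves 1 Tet2+/+ library. Without library 5 or 7 the adjusted p missed 0.05 (0.105 and 0.127). *Vmn1r1* was not called by limma either (adjusted p = 0.0604). In edgeR it was not called with the gene body alone, with 2 kb flanks or with dyads called in all 5 libraries (adjusted p of 0.108, 0.0538 and 0.0512).

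The next gains were larger but did not pass in edgeR's quasi-likelihood test, whereas limma called the 4 named here (adjusted p of 0.0127 for *Vmn1r171*, 0.0173 for *Vmn1r210*, 0.0212 for *Vmn1r115* and 0.0316 for *Vmn2r39*). *Vmn1r171*, in the V1R array of chromosome 7, measured 50.8% and 35.1% in Tet2+/+ and 65.1%, 64.0% and 60.4% in Tet2-/-, a difference of 20.2 points over 40 dyads (adjusted p = 0.0581, edgeR). *Vmn1r210* on chromosome 13 measured 53.8% and 46.2%, then 62.5%, 71.7% and 67.7%, a difference of 17.3 points (adjusted p = 0.0529, edgeR). In both, the 3 Tet2-/- libraries lay above both Tet2+/+ libraries. *Vmn1r115* (18.9 points) and *Vmn2r39* (17.3 points) did so too, with adjusted p-values of 0.106 and 0.26 in edgeR, on 54 to 102 and 27 to 38 calls per library. Their coding identity to the nearest receptor was 98.5% and 98.9%. In other settings of edgeR's test, *Vmn1r171* passed with 2 kb flanks (adjusted p = 0.0337) but not with the gene body alone (0.209). *Vmn1r210* passed with the gene body alone (0.0465) but not with 2 kb flanks (0.117). After thinning to the shallowest library *Vmn1r171* and *Vmn1r210* both passed (0.0499 and 0.0312).

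Among the losses, *Vmn2r96* stood out in both size and test. This V2R gene of chromosome 17 (gene body chr17:18573151-18616003, plus strand, ENSMUSG00000091679.9) had 309 dyads in its window and 627 to 1096 calls per library. Its level was 80.6% and 88.4% in Tet2+/+ and 66.7%, 69.8% and 67.3% in Tet2-/-. The groups did not overlap, and the difference of -16.6 points had an adjusted p of 0.000251 in edgeR's quasi-likelihood test. Only 1 other window of the 21484 was called lower. *Vmn2r96* was on the study's list of genes whose RNA differed between the genotypes, as were its neighbour *Vmn2r95* and *Vmn2r84* on chromosome 10. These are 3 of 333 receptors, and the share of all genes on the list was not set beside them. The RNA itself was not analysed here, its direction of change is not given, and a link with the loss of methylation was not tested.

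The loss was seen in the gene body and both flanks of *Vmn2r96*, but was not even. In 20 kb tiles it was -21.6 points from the gene start and -11.0 points in the next tile, where the groups overlapped. The gene body was at 78.6% and 88.5% in Tet2+/+ and at 67.0%, 71.5% and 62.4% in Tet2-/-. The 5 kb before the gene fell by 16.3 points and the 5 kb after it by 17 points, with the groups apart in each. The 1.5 kb with the most CpGs in the 20 kb before the gene, an interval with 28.7 dyads per kb that ends 13.7 kb before the start (chr17:18558001-18559500), went the other way. It was picked out after its values were seen, and whether it is a repeat, whose reads can be misplaced, was not tested. Its level was 14.8% and 8.84% in Tet2+/+ and 40.9%, 54.3% and 36.1% in Tet2-/-, on 108 to 276 calls. The 500 bp of its left part went from 21.6% and 8.0% to 69.3%, 90.8% and 71.8%, while the 500 bp in its middle were at 0% in both Tet2+/+ libraries and at 1.06%, 11.7% and 3.64% in Tet2-/-. In libraries 23 and 24 the middle had 0 of 59 and 0 of 46 methylated calls, which allows shares of up to 5.08% and 6.52%, for counting error only. The 5 kb on either side of the interval lay between 75.6% and 90.3%, with the genotypes overlapping.

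*Vmn2r96* lies in a stretch where library 24 departed from its usual place. Library 24 was higher than library 23 in 12.3% of all windows, but in 8 of the 8 V2R windows from *Vmn2r95* to *Vmn2r102* (chr17:18424078-19709533), and the highest of all 5 libraries in 7 of them. The median level of these 8 windows was 65.5% in library 23 and 79.0% in library 24, and 67.0%, 64.5% and 62.6% in Tet2-/- libraries 5, 7 and 8. All 8 differences were negative, from -16.6 to -0.202 points. Of the other 38 receptor windows on chromosome 17, 2 were negative, and library 24 was above library 23 in 7. Library 7 departed too, with a median of 70.8% in these 38 windows and 64.5% in the stretch, below library 23 there. The stretch was marked out after its values were seen. Whether the leukemia of library 24 has the same strain background here as the others was not tested, and the losses of receptors in this stretch are to be read with that limit.

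In 20 kb tiles the same stretch had library 24 above library 23 in 62 of 65 tiles, by a median of 9.03 points, against 18 of 60 tiles on its flanks, where the median was -2.97 points. Library 24 had 2.39 calls per dyad in the 8 windows and 2.69 in the other receptor windows of chromosome 17. Of the further large losses, *Vmn2r98* and *Vmn2r101* lay in this stretch. *Vmn2r98* measured 62.8% and 81.5% in Tet2+/+ and 61.5%, 62.8% and 53.4% in Tet2-/- (-12.9 points, adjusted p = 0.113, edgeR). Its difference was -3.55 points without library 24 and -22.3 points without library 23. These fits leave library 23 or library 24 alone in Tet2+/+, so no test result is given for them. *Vmn2r101* measured 64.5% and 77.4%, then 67.4%, 61.8% and 57.0% (-8.89 points, adjusted p = 0.313, edgeR), with the groups overlapping, and its difference was -2.47 points without library 24, -15.3 points without library 23 and -13.8 points after thinning. Without library 24 the difference of *Vmn2r96* was -12.7 points and without library 23 it was -20.4 points, again with a lone Tet2+/+ library. Without library 5, 7 or 8 *Vmn2r96* passed, with adjusted p-values from 6.14e-05 to 0.0122 in edgeR's test.

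**Figure D4:**
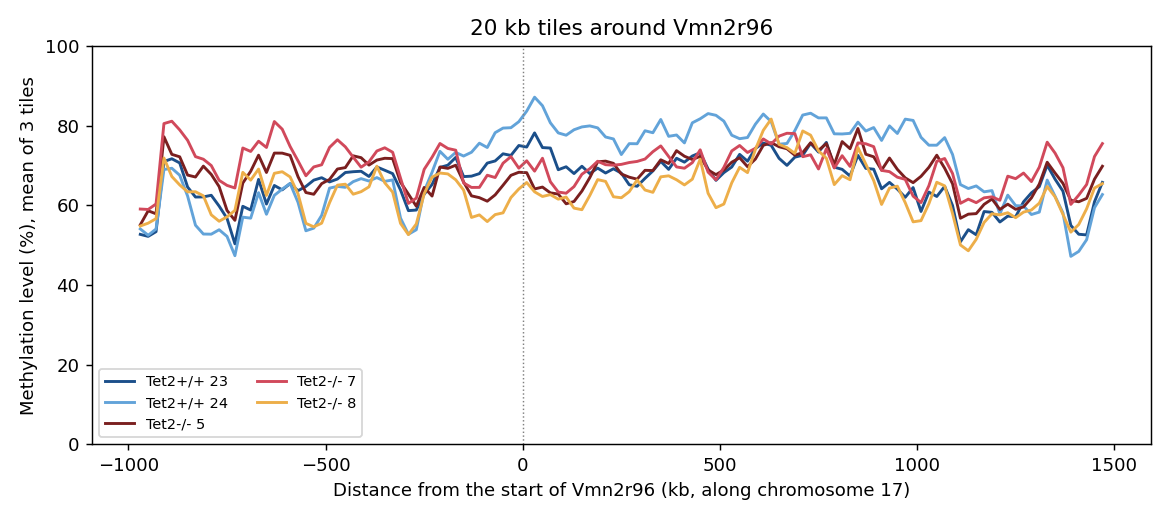
Methylation level (%) of 20 kb tiles, as the mean of 3 neighbouring tiles, in each of 5 libraries against the distance from the start of *Vmn2r96* (kb). Tet2+/+ library 24 (light blue) is the highest line over most of the stretch from *Vmn2r95* to *Vmn2r102* and among the lowest outside it.

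Losses elsewhere were not called. *Vmn2r52* on chromosome 7 measured 85.0% and 77.4% in Tet2+/+ and 65.0%, 75.5% and 72.2% in Tet2-/-, a difference of -10.3 points (adjusted p = 0.123, edgeR). *Vmn1r160* measured 64.0% and 55.3%, then 55.1%, 53.8% and 43.2% (-8.94 points, adjusted p = 0.556, edgeR), on 37 to 69 calls per library. The groups did not overlap in either, but the margin in *Vmn1r160* was 0.247 points. Its difference was -0.773 points after thinning to the shallowest library, -4.6 points without library 23 and -5.2 points without library 8, and that of *Vmn2r52* was -6.51 points without library 23.

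Promoters, taken as 1 kb on each side of the gene start, could be measured in few receptors. With a median of 7 dyads per promoter, 79 of 333 had at least 20 calls in every library. Sequences from 250 bases before the start to 30 after it are shown for the promoter that passed the test (*Vmn2r7*, chr3:64844736-64845015, minus strand) and for the receptors whose windows did (*Vmn1r1*, chr1:182164457-182164736, minus strand, and *Vmn2r96*, chr17:18572901-18573180, plus strand), with CpGs in capitals.
Vmn2r7: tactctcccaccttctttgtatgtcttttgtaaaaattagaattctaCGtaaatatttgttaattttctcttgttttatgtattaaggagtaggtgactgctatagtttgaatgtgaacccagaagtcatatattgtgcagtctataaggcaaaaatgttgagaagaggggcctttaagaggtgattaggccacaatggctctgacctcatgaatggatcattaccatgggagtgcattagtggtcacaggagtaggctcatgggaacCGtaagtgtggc
Vmn1r1: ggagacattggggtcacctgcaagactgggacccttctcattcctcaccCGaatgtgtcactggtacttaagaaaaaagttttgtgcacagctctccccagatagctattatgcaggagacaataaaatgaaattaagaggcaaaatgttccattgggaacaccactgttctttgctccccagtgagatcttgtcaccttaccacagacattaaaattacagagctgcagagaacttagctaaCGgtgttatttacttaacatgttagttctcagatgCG
Vmn2r96: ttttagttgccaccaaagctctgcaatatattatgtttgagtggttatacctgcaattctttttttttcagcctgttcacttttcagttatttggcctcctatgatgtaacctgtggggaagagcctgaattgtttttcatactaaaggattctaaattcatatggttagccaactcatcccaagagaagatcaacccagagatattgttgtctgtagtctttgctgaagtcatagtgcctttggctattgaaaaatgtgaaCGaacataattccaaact
They held 2, 3 and 1 CpGs. The promoter of *Vmn2r96* had 7 dyads and 4 to 16 calls per library, under the minimum of 20.

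*Vmn2r7*, in the V2R array of chromosome 3, was the 1 receptor promoter of 79 called higher in Tet2-/-. Over 9 dyads (chr3:64843765-64845765) its level was 26.5% and 30.6% in Tet2+/+ and 70.7%, 68.0% and 66.7% in Tet2-/-, on 33 to 58 calls. The difference was 39.9 points (adjusted p = 0.0475, edgeR's quasi-likelihood test), with both Tet2+/+ libraries far below. At the 2 CpGs printed above, 2 of 6 and 1 of 5 calls were methylated in Tet2+/+, and 8 of 9, 6 of 7 and 3 of 5 in Tet2-/-. The promoter of *Vmn2r7* was not called in edgeR's test when library 5, 7 or 8 was left out. Over all 19463 promoters 1.06% were called higher and 0.0154% lower, and 0 receptor promoters were called lower in edgeR's test. At an unadjusted p under 0.05 there were 9 of 79 receptor promoters higher and 0 lower, against 17.5% and 0.591% of all promoters.

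Over all 79 receptor promoters, *Vmn2r7* included, the median difference was 7.18 points, against 2.22 points over all promoters. The latter differ in level and CpG number, as given below. With calls pooled over the promoters of 295 receptors, the difference was 5.10 points (4.14 in V1R and 7.65 in V2R). In 500 bp bins over the same 1 kb on each side, other genes of like CpG number gained 5.11 to 7.12 points. The pooled receptor gain was thus not larger than theirs, while that of V2R lay above this range. These contrasts were not tested. All Tet2-/- libraries lay above in 23 of 79 (29.1%, against 32.8% of all promoters) and below in 4 (5.06%, against 4.05%). Median promoter levels were 66.7% and 54.3% in Tet2+/+ and 67.6%, 74.3% and 62.3% in Tet2-/-, against 12% to 18.8% over all promoters, which hold a median of 70 dyads. CpG islands, in which many promoters of other genes lie, are usually free of methylation.

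The start of V1R genes showed a dip, as did that of other genes of like CpG number. In the 500 bp after the start, V1R genes were at 50.4% and 43.5% in Tet2+/+ and 54.3%, 58.2% and 46.1% in Tet2-/-, against 69.9%, 63.4%, 73.5%, 78.9% and 70.1% in the bin that begins 2 kb upstream. The other genes were at 51.9%, 47%, 54.6%, 57.6% and 51.5% after the start and at 67.2%, 61.9%, 71.1%, 76.2% and 67.8% in that upstream bin, so the dip was not particular to V1R genes. A single gene, *Vmn1r4*, held 17 of the 331 dyads of V1R genes in these 500 bp, at 6.52% to 12.5%. Without it, a check added after seeing the data, V1R genes were at 53.8%, 46.3%, 57.6%, 63.2% and 48.6% there. For V1R genes the bin that begins 2 kb upstream was the highest within 5 kb of the start in every library, which enlarges their fall. In the bin that begins 5 kb upstream, V1R genes were at 66.6%, 58.8%, 69.6%, 75.9% and 61.6%. V2R genes were at 66.2%, 58.8%, 73.2%, 74.2% and 67.3% in that bin. V2R genes had 60.4%, 50.6%, 65.3%, 70.5% and 59.5% in the 500 bp after the start, and 69.2%, 62.9%, 75.1%, 73.0% and 63.6% in the bin that begins 2 kb upstream, a smaller fall in every library than that of V1R genes with or without *Vmn1r4*, a contrast that was not tested. Within genes, pooled exon CpGs of V1R were at 59.1% ± 4.74 (SD, n = 2) and 65.3% ± 5.01 (SD, n = 3), and those of V2R at 62.6% ± 3.86 and 68.7% ± 4.61. Introns of V2R were at 63.2% ± 2.31 and 67.2% ± 4.42. In libraries 23, 24, 5, 7 and 8, V2R exons were at 65.3%, 59.8%, 68.8%, 73.3% and 64.1%. V2R introns were at 64.8%, 61.5%, 67.3%, 71.6% and 62.8%, lower than exons in all but library 24. Introns of V1R, at 60.0% ± 5.59 and 66.5% ± 5.33, lay above V1R exons in every library. These contrasts were not tested.

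**Figure D5:**
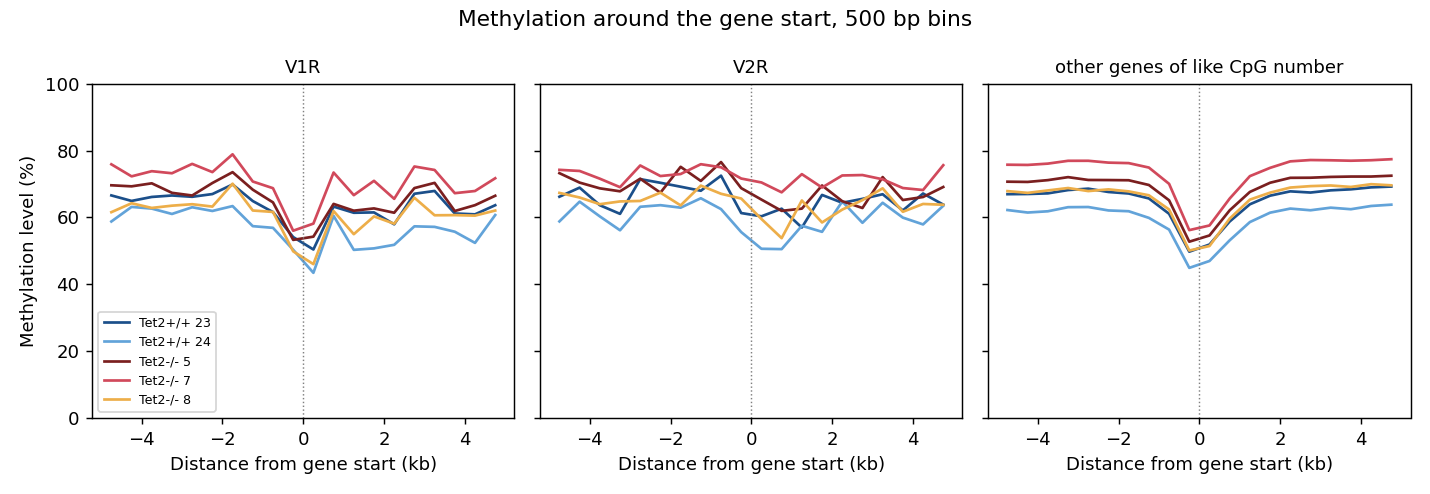
Methylation level (%) in 500 bp bins against the distance from the gene start (kb), 1 line per library, for V1R, V2R and other genes weighted to the receptors' classes of CpG number. All 5 lines of V1R fall at the start, to between 43.5% and 58.2% in the 500 bp after it, and those of V2R fall less.

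In sequence, RefSeq promoters (GRCm38.p6, 250 bases before to 50 after the start) matched 298 of 333 receptors by symbol. A TATA box sequence, TATAAA on either strand, was in 44.3% of V1R and 22.6% of V2R promoters, against 14.2% of all 27025 promoters. The homeodomain core TAATTA was in 8.20% and 17.4%, against 5.31%. The median number of CpGs was 1, against 7. A further motif that was searched, rich in C and G, was in 0 of 298 receptor promoters, against 0.914% of all promoters. The TATA box sequence and the homeodomain core hold only A and T. These are counts of letters and not of bound sites.

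The arrays differed in level more than in gain. Receptors were joined to an array where neighbours lay within 1 Mb. The V2R array of chromosome 6 from *Vmn2r19* to *Vmn2r27* had a median level over libraries of 77.9%, with 74.8% and 72.4% in Tet2+/+ and 79.9%, 86.1% and 78.2% in Tet2-/-. The V1R array from *Vmn1r32* to *Vmn1r39* on the same chromosome was also at 77.9%. The largest array, 65 V1R genes of chromosome 7 from *Vmn1r91* to *Vmn1r183*, was at 59.5%, with 60.3% and 51.5% in Tet2+/+ and 63.2%, 64.7% and 56.9% in Tet2-/-. It had 37 genes with enough calls and a median of 1.12 calls per dyad. Median gains of the 10 largest arrays ran from 3.35 points (*Vmn2r90* to *Vmn1r237*, chromosome 17, which contains the stretch described above) to 7.64 points (*Vmn2r65* to *Vmn2r79*, chromosome 7). All 28 differences of the chromosome 6 array from *Vmn1r4* to *Vmn1r31* and all 15 of that from *Vmn1r40* to *Vmn1r54* were positive. Over all windows 91.6% were positive, and the smallest of the 28 differences was 0.00094 points. For 44 receptors the window overlapped that of another receptor, so neighbours can share calls.

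*Vmn1r103* was the highest, with 84.8% and 85.7% in Tet2+/+ and 92.3%, 94.7% and 96.8% in Tet2-/-, on 31 to 57 calls at 14.4% of its dyads. *Vmn2r84* (83.8% to 89.1%) and *Vmn2r20* (81.2% to 92.1%) followed. The lowest were *Vmn1r177*, at 48.8% and 31.8%, then 43.2%, 49.5% and 32.9%, *Vmn1r170* (30.8% to 52.7%) and *Vmn1r127* (34.3% to 55%). *Vmn1r177* overlapped between genotypes, whereas *Vmn1r127* had 37.3% and 34.3% in Tet2+/+ and 50% to 55% in Tet2-/- (17 points, adjusted p = 0.254, edgeR). limma called *Vmn1r127* higher (adjusted p = 0.0127).

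Receptors with known ligands did not pass the test. *Vmn2r116*, which detects the male tear peptide ESP1, measured 55.6% and 45.4% in Tet2+/+ and 60.1%, 63.9% and 55.1% in Tet2-/-, a difference of 9.16 points (adjusted p = 0.329, edgeR). *Vmn2r26*, a receptor for peptides that bind to the major histocompatibility complex (MHC), was high at 80.6% and 79.5%, then 83.4%, 88.1% and 85.4%, a difference of 5.57 points with the groups apart (adjusted p = 0.234, edgeR). *Vmn2r1*, of the small V2R subfamily that is expressed together with other V2Rs, measured 73.2% and 60.4%, then 74.5%, 80.8% and 68.3%. *Vmn1r49*, a receptor for 2-heptanone, and *Vmn1r85* and *Vmn1r89*, receptors for sulfated steroids, differed by 5.4, 5.97 and 4.72 points, with adjusted p-values of 0.559, 0.463 and 0.556 in edgeR. These values were not stable: *Vmn1r49* differed by 16.9 points with the gene body alone and by 14.7 points with 2 kb flanks, and *Vmn1r89* by -1.11 points with the gene body alone and 8.04 points with 2 kb flanks. Without library 24 the differences of *Vmn1r49*, *Vmn1r85*, *Vmn2r1* and *Vmn2r116* were 2.99, 3.03, 1.35 and 4.07 points. The groups were apart in *Vmn1r49* and *Vmn1r85* and overlapped in *Vmn1r89* and *Vmn2r1*.

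The receptors on the study's RNA list did not share a direction. Beside *Vmn2r96*, *Vmn2r95* measured 68.2% and 71.0% in Tet2+/+ and 64.4%, 64.7% and 59.6% in Tet2-/- (-6.74 points, adjusted p = 0.391, edgeR), with the groups apart. *Vmn2r84* differed by 2.63 points (adjusted p = 0.628, edgeR) with the groups overlapping.

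Genes that serve vomeronasal neurons were called more often than the receptors, a contrast that was not tested. Of 40 such genes tested, 9 were higher and 0 lower in edgeR's test, with 15 and 0 at an unadjusted p under 0.05, and all Tet2-/- libraries lay above in 22 and below in 1 (*Atf5*, named after its values were seen). These shares, 22.5% called and 55% above, were close to those of all windows (19.3% and 49.6%). They had a median of 243 dyads per window, against 104 in receptors. *Emx2* and *Lhx2*, homeobox genes of olfactory development, were weakly methylated. *Emx2* rose from 15.4% and 12.96% to 23.2%, 22.7% and 25.9% (adjusted p = 0.000303, edgeR), and *Lhx2* from 22.9% and 20.9% to 29.05%, 31.3% and 35.6% (adjusted p = 0.00604, edgeR). *Cnga4*, a subunit of the olfactory nucleotide-gated channel, rose from 52.9% and 46.1% to 65.4%, 58.9% and 69.8% (adjusted p = 0.00503, edgeR). *Calr4*, a calreticulin of vomeronasal neurons, *Plcb2*, a phospholipase of chemosensory cells, *Lcn3*, a lipocalin of the vomeronasal glands, *H2-M10.2*, a nonclassical MHC gene expressed with V2Rs, *Ano1*, a calcium-activated chloride channel, and *Nrp2*, an axon guidance receptor, rose by 10.32 to 18.8 points, with adjusted p-values from 0.000396 to 0.0455 in edgeR. *Trpc2*, the channel of vomeronasal transduction, measured 82.5% and 77.9%, then 84.2%, 87.9% and 83.2%, and missed the threshold (adjusted p = 0.0859, edgeR).

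Olfactory receptors, the large family used by the main olfactory epithelium, served as a comparison. They had a median of 3.32 calls per dyad, against 3.04 in vomeronasal receptors. Of 1133 *Olfr* windows with a median of 70 dyads, 81 were higher (7.15%) and 0 lower (with 198 and 3 at an unadjusted p under 0.05, edgeR), and the groups were apart and higher in 33.8%. Other genes of like CpG number were called higher in 6.26% and apart and higher in 36.8%, close to these. The mean level of *Olfr* windows lay above that of other genes of like CpG number in all 5 libraries, by 1.64 and 1.3 points in Tet2+/+ and 1.86, 1.9 and 0.277 points in Tet2-/-, where V1R windows lay below. The other genes set beside V1R windows included *Olfr* genes, whereas those beside *Olfr* windows left out both families. The offsets thus rest on unlike references, and the difference between the families was not tested.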

How the data were processed

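WGBS libraries of sorted blasts were made with the Pico Methyl-Seq kit. Per the submitters' processing notes and the study's methods, adapters were trimmed with Trim Galore 0.4.3, and the authors aligned reads to GRCm38 with Bismark 0.19.1 and Bowtie2 and removed duplicates. The deposited values are raw counts, for each CpG cytosine, of its methylated and its unmethylated calls. Calls of both strands were added per dyad and genes on Y and the mitochondrial genome were left out. All 13322638 CpG positions on chromosomes with receptors matched the reference. No batch was named in the labels.

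Windows and promoters that reached 20 calls in each library entered edgeR 4.0.16 (R 4.3.3). Methylated and unmethylated counts had a coefficient per library, one for methylation and one for its difference between genotypes, with trended dispersion, tested on simulated data first. limma 3.58.1 used log2((methylated + 2)/(unmethylated + 2)). Coding identity came from BLAST+ 2.17.0 (hits over at least 80% of the query). Genes named in the text were the 5 largest gains and losses, the 3 highest and lowest levels, preset receptors with known ligands or roles, receptors on the study's RNA list and called promoters and function genes. The other members of the chromosome 17 stretch were named after their values were seen. Alternatives were other call minimums, tests, flanks, dyad sets, classes of like genes and leaving out each library. Members and lists were chosen with earlier results of these data known. A second pair of coding sequences is not reported here.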

Additional observations from a re-analysis of the deposited data

How the results depend on the processing

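The median difference of the receptor windows remained positive under all alternatives run, at 5.64 to 5.92 points with other minimums, window lengths and call sets, and at 2.85 to 8.70 points when 1 library was left out. The number of receptor windows called higher (1) became 2 with at least 10 calls and 3 with the likelihood ratio test. It was also 3 with gene bodies alone, with 2 kb flanks and with dyads called in all 5 libraries (these 3 without *Vmn1r1*). It was 4 after thinning to the shallowest library, 17 with limma and 0 with limma after each library's median was subtracted. It lay between 0 and 10 without library 5, 7 or 8. Over all genes, 4141 windows became 2155 with limma and 0 with subtracted medians, and 50 (without library 24) to 4127 with 1 library left out. The subtraction removed a shift of 0.38 in log2 odds. At an unadjusted p under 0.05 in limma, 4043 windows then differed in either direction, 47 of them receptors. The receptor window called lower (1) became 0 with subtracted medians and stayed 1 without library 5, 7 or 8. The promoter called higher (1) became 3 with the likelihood ratio test, 0 with subtracted medians, 0 with 2 kb on each side and 0 without library 5, 7 or 8. The offset in level from other genes (-1.05 points) was 1.92 with gene bodies alone, 0.044 with 2 kb flanks -2.15 with dyads called in all 5 libraries, -0.67 without library 8, -1.66 with classes of CpG density and -1.95 with classes of call number, and the cause was not tested. The difference in gain (-1.17 points) ran from -1.55 to -0.61 with 1 library left out, and was -0.72 with classes of CpG density and, as alternatives chosen after seeing the data, -1.04 with classes of call number and -0.83 without *Vmn2r95* to *Vmn2r102*. No paired analysis was possible because the genotypes share no replicate number. With at least 10 calls 304 receptor windows were tested, and *Vmn2r36* was the receptor added to those called.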

Other observations

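The genes of vomeronasal ligands, the major urinary proteins (*Mup*) and exocrine-gland peptides (*Esp*), had 32 of 37 windows with enough calls. Their median levels were 63.6% and 56.8% in Tet2+/+ and 68.2%, 69.7% and 59.6% in Tet2-/-. The median difference was 5.51 points, and 0 windows were called by edgeR's quasi-likelihood test, with 3 higher and 0 lower at an unadjusted p under 0.05. Over all windows 19.3% were called higher, and 32.1% were higher at an unadjusted p under 0.05. The ligand windows held fewer counts, with medians of 59.5 dyads and 2.56 calls per dyad, against 375 and 4.58 over all windows. They were not set beside genes of like CpG number.

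Of 15 trace amine receptor (*Taar*) windows, 5 were called higher by edgeR's test, with a median difference of 13.2 points, and of 35 bitter taste receptor (*Tas2r*) windows 3 were called, with a median difference of 9.56 points. These are 33.3% and 8.57%, against 19.3% of all windows, and against 6.64% and 2.90% of other genes of like CpG number. Median *Taar* levels were 72.1% and 62.4% in Tet2+/+ and 77.1%, 83.1% and 71.8% in Tet2-/-, and those of *Tas2r* were 60.3% and 52.7%, then 64.5%, 73.6% and 62.5%.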
